A study of Mus musculus with 2 samples.

Results

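The transcripts of 10 genes for colony stimulating factors, related growth factors and their receptors were read in single GFP+ cells of denervated mouse hind limb muscle. The set held 4 ligand genes (Csf1, Il34, Kitl and Flt3l) and 6 receptor genes (Csf1r, Csf2ra, Csf2rb, Csf3r, Flt3 and Kit), out of 32287 features in the matrix. The genes were listed by name and not by a rule on their values, but with earlier results of these data known. Their levels were read across stromal cells as possible sources and myeloid cells as possible receivers. All 10 genes had UMIs in the library.

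The cells came from 2-month-old male S100GFPtg mice, labelled WT, in which the S100B promoter drives green fluorescent protein, 7 days after a sciatic nerve crush. Tibialis anterior and gastrocnemius were digested, and GFP+ and GFP- cells were sorted and sequenced as 1 droplet library each, with 3' tags. The GFP- counts were not analysed here, and no uncrushed muscle enters any comparison, so every level belongs to crushed muscle and to the GFP+ sort. The labels speak of a sciatic injury and of a single crushed animal, the series title of a spinal crush, and the study's methods of pooled males, so how many animals gave the cells is uncertain.

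In background, colony stimulating factor 1 (Csf1) and interleukin 34 (Il34) are separate ligands of a shared receptor tyrosine kinase, Csf1r, which monocytes and macrophages need to survive and divide. Stem cell factor (Kitl) signals through Kit, known in mast cells, blood progenitors and melanocytes, and the Flt3 ligand (Flt3l) through Flt3, on which dendritic cells depend. Csf2ra and Csf2rb are the alpha and the common beta chain of the GM-CSF receptor, the beta chain also serving interleukins 3 and 5, and Csf3r is the receptor for G-CSF, best known in neutrophils.

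A cell's depth is given in unique molecular identifiers (UMIs), which count captured RNA molecules. Of 36400 barcodes, 8894 held at least 5000 UMIs, and 8701 of those also had more than 200 genes and under 10% mitochondrial UMIs, with a median of 11624 UMIs. Barcodes were placed by the UMIs of marker genes, none of them a member, into 15 named classes with at least 20 cells or into smaller ones. A further 714 mesenchymal and 1070 leukocyte barcodes took a lineage but no single subset, and 703 took no lineage. In 13 of those classes every gating marker was at least 2 times its level in the other cells. The Gdf10 Inmt fibroblasts passed this with 3 of 4 markers. The C1q macrophages, a remainder gate for leukocytes with no other subset, passed with 0 of 7, since the other macrophages carried the same genes. It also held the most hemoglobin RNA of the named classes, 5631 CPM against 258 CPM in the Lyve1 Folr2 macrophages, and the part of this in its levels was not tested. GFP UMIs were found in 78.8% of myeloid and in 58.3% of mesenchymal cells. The GFP- library shared 372 barcodes with the GFP+ library, 84 of them among the barcodes kept.

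The members lie on 9 chromosomes of the GRCm38.p6 assembly by RefSeq. Csf1 spans chr3:107741048-107760469, Il34 chr8:110741829-110805949, Kitl chr10:100015615-100100416 and Flt3l chr7:45131183-45136490. Among the receptors, Csf2ra chr19:61217191-61228461, Csf2rb chr15:78325800-78351001, Csf3r chr4:126023441-126044975, Flt3 chr5:147330741-147400489 and Kit chr5:75574987-75656722. Of the 10, 6 overlap the span of another annotated gene, long noncoding RNAs or microRNAs, and reads of such a neighbour could not be told apart here. Csf2rb has a close paralog, Csf2rb2, whose reads could be shared with it, so the levels of both are uncertain.

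The bases before the start of Csf1, Flt3 and Kit are shown because the levels of these 3 genes were led by fibroblasts (Csf1) or dendritic cells (Flt3 and Kit) and their windows lie outside the annotated genes. Each is the stretch of 250 bases before a RefSeq start on GRCm38.p6, 5′ to 3′ on the gene's strand, and capitals mark 3 motifs, read on either strand. The first is GAGGAA, the core of sites bound by PU.1, a transcription factor of myeloid cells. A TATA box, which positions the start of transcription at some promoters, was searched as TATAAA. A GC box, the kind of site bound by Sp factors, was searched as GGGCGG.
Csf1, minus strand, chr3:107760470-107760719: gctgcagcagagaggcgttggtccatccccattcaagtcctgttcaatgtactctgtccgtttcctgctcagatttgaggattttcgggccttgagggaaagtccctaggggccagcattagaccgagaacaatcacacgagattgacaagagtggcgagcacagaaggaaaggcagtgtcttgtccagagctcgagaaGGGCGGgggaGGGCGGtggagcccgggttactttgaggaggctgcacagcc
Flt3, minus strand, chr5:147400490-147400739: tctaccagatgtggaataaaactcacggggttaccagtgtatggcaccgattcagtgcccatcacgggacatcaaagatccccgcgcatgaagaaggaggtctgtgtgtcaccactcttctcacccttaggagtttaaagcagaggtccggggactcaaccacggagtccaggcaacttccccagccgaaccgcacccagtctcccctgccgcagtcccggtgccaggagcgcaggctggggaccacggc
Kit, plus strand, chr5:75574737-75574986: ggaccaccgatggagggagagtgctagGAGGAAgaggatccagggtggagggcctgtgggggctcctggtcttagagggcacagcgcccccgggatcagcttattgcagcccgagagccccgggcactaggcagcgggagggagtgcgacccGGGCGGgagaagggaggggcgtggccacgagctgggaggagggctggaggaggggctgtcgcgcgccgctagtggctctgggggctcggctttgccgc

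For Kitl, Csf2ra and Csf3r, stretches of 30 bases around a match to the PU.1 core or the TATA box are shown, since their windows reach into an annotated gene. Kitl holds TATAAA beginning 25 bases before the start of its promoter entry. Csf2ra holds GAGGAA as a direct repeat ending just before the start of its own entry. All 3 stretches lie inside the gene spans given above, and not before the whole gene.
Kitl, plus strand, chr10:100015784-100015813: gggagggagctgTATAAAaagcgctggcgg
Csf2ra, minus strand, chr19:61228419-61228448: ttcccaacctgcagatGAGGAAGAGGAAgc
Csf3r, plus strand, chr4:126024561-126024590: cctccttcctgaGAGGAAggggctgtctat
Of the 10 members, 7 had an entry among the RefSeq promoters. GAGGAA was found in the 250-base windows of Csf2ra, Csf3r and Kit, against 23.3% of all 32851 windows of this length. TATAAA was found in that of Kitl alone among the 7, against 12.4%. GGGCGG was found in those of Csf1, Kitl, Flt3l, Csf2ra and Kit, against 32.7%. A match is a string of letters in the window and not a measured binding site.

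Levels are given as pooled CPM, the UMIs of a gene for each 1000000 UMIs of a class, with exact Poisson 95% intervals in brackets. For the share of cells that held a gene, every cell was first thinned to 5000 UMIs, and exact binomial 95% intervals are given. There was 1 library and no replicate, so no test was run, and all intervals cover counting error only.

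**Figure D1:**
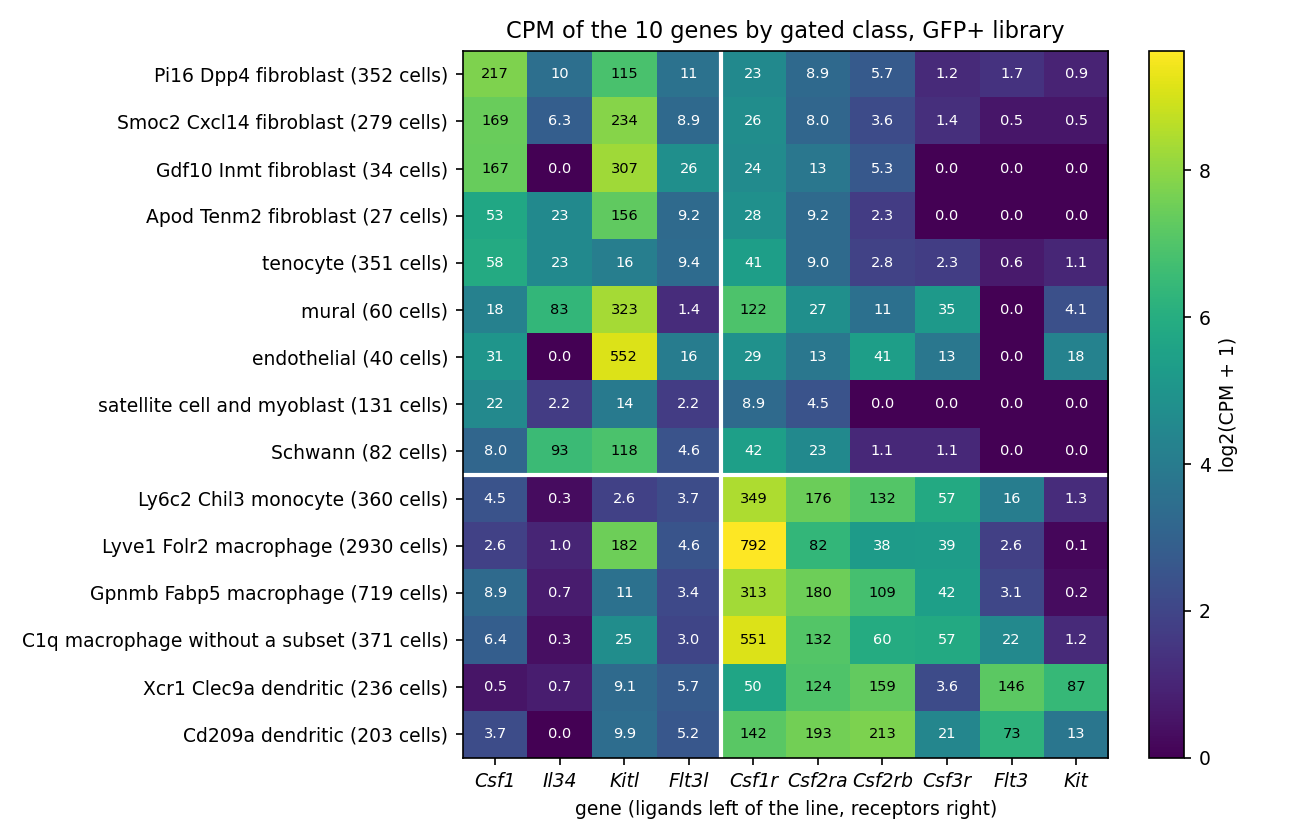
CPM of the 10 genes (columns) in the 15 named classes (rows, with cell numbers), printed in each cell and colored by log2(CPM + 1). The lower right block holds the receptors in myeloid classes, led by Csf1r at 792 CPM in Lyve1 Folr2 macrophages. The single bright ligand value in the lower left block is Kitl at 182 CPM in the same macrophages.

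The 6 receptors and 2 of the 4 ligands differed between mesenchymal and myeloid cells by at least 4-fold, in opposite directions. The comparison addresses which of these cells could supply the factors and which could receive them. Endothelial, mural, Schwann and satellite cells were in neither group, although Il34 was highest in Schwann cells and Kitl in endothelial cells. The 1776 mesenchymal cells were 711 fibroblasts of 5 gates, 351 tenocytes and the 714 cells with no single subset, while the 4827 myeloid cells left out the 1070 leukocytes with none. In the first against the second, Csf1 and Il34 were at least 4-fold higher, and all 6 receptors were at least 4-fold lower. Kitl and Flt3l were past this fold in neither direction. Over all 17578 features with at least 20 UMIs, 18.8% were 4-fold higher in mesenchymal cells and 10.5% lower. The median log2 ratio was 2.48 over the 4 ligands, -4.08 over the 6 receptors and 0.16 over all features.

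Csf1 stood at 165 CPM [160, 169] in mesenchymal and at 4.05 [3.57, 4.59] in myeloid cells, a log2 ratio of 5.34 [5.16, 5.53]. Csf1r was the reverse, with 30.8 CPM in mesenchymal and 579 in myeloid cells, a log2 ratio of -4.23 [-4.33, -4.13]. This ratio moved with the choice of barcodes, to -5.44 without those with the highest doublet scores and to -3.11 with a minimum of 2000 UMIs. Without the highest doublet scores the other 5 receptors lay between -6.39 and -4.49. The mesenchymal receptor UMIs lay in few cells: the 10% of mesenchymal cells with most Csf1r UMIs held 86.3% of them. Genes of the myeloid background list (Tyrobp, Lyz2, Cd74 and 4 others) stood in the mesenchymal cells at 4.89% of their myeloid level, and the 6 receptors at 5.19% to 8.87% of theirs. The part that free myeloid RNA has in these receptor UMIs was not tested.

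Among the named classes, Csf1 was highest in the adventitial-type Pi16 Dpp4 fibroblasts, at 217 CPM [206, 228] from 1415 UMIs. The gene encodes the main macrophage growth factor. Smoc2 Cxcl14 fibroblasts held 169 CPM [157, 182] and Gdf10 Inmt fibroblasts 167 CPM [128, 213], and these 2 did not differ beyond counting error. The step from Pi16 Dpp4 to Smoc2 Cxcl14 cells was larger than counting error, at a log2 ratio of 0.36 [0.22, 0.49]. The leading class depended on the gates. Dkk2 Bmper fibroblasts, left out here with 19 cells, led at 228 CPM from 83 cells when the marker list with most UMIs took the cell.

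Tenocytes held 57.6 CPM [50.9, 64.8] of Csf1, 3.77-fold below the Pi16 Dpp4 cells. Apod Tenm2 fibroblasts, which carry nerve sheath genes, held 52.8 CPM and could not be told from tenocytes. Endothelial cells held 31.1 CPM, satellite cells and myoblasts 22.3, mural cells 17.6 and Schwann cells 8.0, and these last values rest on 7 to 30 UMIs each. Mesenchymal cells carried 87.8% of all Csf1 UMIs of the kept barcodes, 37.8% being in those with no single subset, while they held 23.8% of all UMIs.

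Per cell, Csf1 was frequent in the Pi16 Dpp4 fibroblasts. After thinning, 63.9% [58.7, 68.9] of them held a Csf1 UMI, and 90.1% did unthinned, at a median of 18784 UMIs. In the Lyve1 Folr2 macrophages, a class with few such UMIs, the thinned share was 0.853% at a median of 11445 UMIs. When the Pi16 Dpp4 cells were cut into 4 equal bins by the summed level of their gating genes, Csf1 stayed between 209 and 229 CPM, within overlapping intervals.

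Among macrophages, Csf1 was low but uneven. Gpnmb Fabp5 macrophages, which carry genes of lipid handling and phagocytosis, held 8.92 CPM [7.32, 10.8], 3.41-fold above the 2.62 CPM [2.11, 3.20] of Lyve1 Folr2 macrophages. Within the Gpnmb Fabp5 cells the level was 4.43 CPM in the bin with the lowest summed gating genes, then 5.82, 11.0 and 12.1 CPM, with median depth going from 11066 to 19396 UMIs over the same bins. The collagen and matrix background list stood at 87.7 CPM in these cells against 109 in the Lyve1 Folr2 cells.

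**Figure D2:**
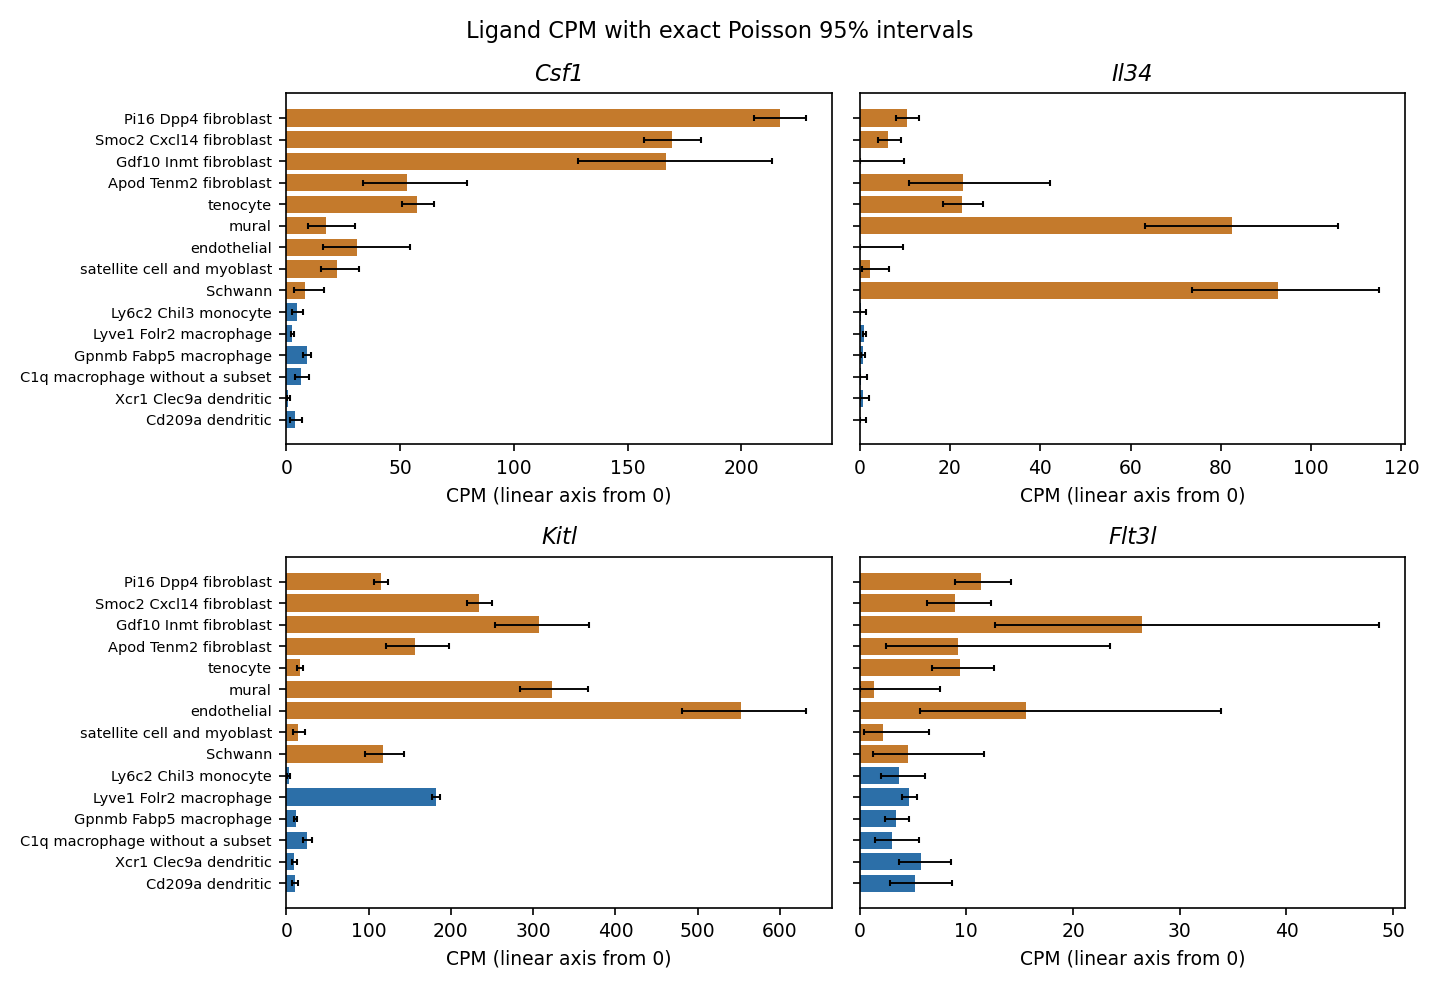
CPM of the 4 ligand genes in each class (bars from 0, stromal classes orange, myeloid classes blue) with exact Poisson 95% intervals. Csf1 peaks in fibroblasts at 217, Il34 in Schwann and mural cells at 92.6 and 82.5, and Kitl reaches 552 in endothelial cells, while every Flt3l bar stays under 30.

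Il34, the second Csf1r ligand, had a different set of sources. It was highest in Schwann cells, at 92.6 CPM [73.5, 115] from 81 UMIs in 82 cells, and in mural cells, at 82.5 CPM [63.1, 106] from 61 UMIs in 60 cells. The 2 classes did not differ beyond counting error (log2 ratio 0.17 [-0.33, 0.67]), but without the barcodes with the highest doublet scores the levels were 107 CPM in Schwann and 56.8 CPM in mural cells. In Schwann cells a single cell held 19 of the 81 UMIs, and in mural cells no cell held more than 6.

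Apod Tenm2 fibroblasts held 23.0 CPM [11.0, 42.2] of Il34 and tenocytes 22.6 CPM [18.5, 27.3], about the same level. The Schwann level was 4.10-fold above that of tenocytes. Tenocytes in turn were above the fibroblasts of the 5 gates together, 8.90 CPM, at a log2 ratio of 1.34 [0.94, 1.75]. Pi16 Dpp4 fibroblasts held 10.4 CPM and Smoc2 Cxcl14 fibroblasts 6.27 CPM, and the Gdf10 Inmt fibroblasts and endothelial cells held 0 UMIs, which allows up to 7.94 and 7.78 CPM.

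In myeloid classes Il34 was near absent, from 0 UMIs in Cd209a dendritic cells to 0.974 CPM in Lyve1 Folr2 macrophages. After thinning, 24.4% [15.6, 35.1] of Schwann and 33.3% [21.7, 46.7] of mural cells held an Il34 UMI, at median depths of 8788 and 10647 UMIs, against 0.717% of Lyve1 Folr2 macrophages. So Csf1 and Il34 ordered the stromal classes differently: Schwann cells were at the top for Il34 and held 7 Csf1 UMIs, while Pi16 Dpp4 fibroblasts were at the top for Csf1. In tenocytes, where both were found, 41 of 351 cells held UMIs of both, 11.7%, where the product of the separate shares is 10.4%.

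Kitl was found in stromal cells of several kinds and, at a like level, in Lyve1 Folr2 macrophages. Endothelial cells held 552 CPM [481, 632] from 213 UMIs in 40 cells, mural cells 323 [284, 367], Gdf10 Inmt fibroblasts 307 [254, 368] and Smoc2 Cxcl14 fibroblasts 234 [220, 250]. Dkk2 Bmper fibroblasts, 19 cells and so not ranked, held 137 Kitl UMIs, 0.997% of the total beside 0.275% of all UMIs. Mural cells held 1.74% beside 0.651%, so the Dkk2 Bmper level was above theirs. Endothelial cells were above mural cells at a log2 ratio of 0.77 [0.50, 1.05], while mural cells and Gdf10 Inmt fibroblasts did not differ beyond counting error. A Kitl UMI was held, after thinning, by 67.5% [50.9, 81.4] of endothelial and 71.7% [58.6, 82.5] of mural cells. Smoc2 Cxcl14 fibroblasts were above Pi16 Dpp4 fibroblasts, 115 CPM. By pooled CPM, Kitl was the only one of 7 members with at least 20 UMIs past 2-fold between these 2 subsets. Its log2 ratio of Pi16 Dpp4 to Smoc2 Cxcl14 cells was -1.03 [-1.17, -0.89], an interval that includes less than 2-fold. Means over cells, 119 CPM in Pi16 Dpp4 and 220 CPM in Smoc2 Cxcl14 cells, were less than 2-fold apart. A single Smoc2 Cxcl14 cell held 79 of the 972 Kitl UMIs of its class, and a single Pi16 Dpp4 cell 37 of 750. Between these 2 subsets 7.49% of 12665 features were 2-fold higher in Pi16 Dpp4 cells and 8.7% lower, by pooled CPM.

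Tenocytes held 16.2 CPM of Kitl, 10.0-fold under mesenchymal cells as a whole. Within Pi16 Dpp4 fibroblasts, Kitl went from 133 CPM in the bin with the lowest gating genes to 97.1, 174 and 49.0 in the bin with the highest. Il34 in the same bins stood at 4.29, 4.09, 5.91 and 29.5 CPM [21.4, 39.6]. Apod Tenm2 fibroblasts held 156 CPM [121, 198] and Schwann cells 118 CPM [96.1, 143] of Kitl, which did not differ beyond counting error. Satellite cells and myoblasts held 14.2 CPM, of which 12 of 19 UMIs lay in a single cell.

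In Lyve1 Folr2 macrophages, the perivascular-type resident macrophages by their markers, Kitl stood at 182 CPM [178, 186] from 6540 UMIs in 2930 cells. This was 1.12-fold the level of mesenchymal cells (log2 ratio 0.16 [0.11, 0.22]), 16.4-fold that of Gpnmb Fabp5 macrophages, 11.1 CPM, and 69.2-fold that of Ly6c2 Chil3 monocytes, 2.63 CPM. C1q macrophages held 25.1 CPM, and the 2 dendritic classes 9.10 and 9.94 CPM. These macrophages carried 47.6% of all Kitl UMIs of the kept barcodes and 31.6% of all UMIs.

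A Kitl UMI was held by 58.5% of the Lyve1 Folr2 macrophages unthinned and 42.5% [40.7, 44.3] thinned. Thinned to the same depth, the share was 0.833% of monocytes, whose median depth was 10178 UMIs against 11445. By number, 1217 of the 2930 cells held 0 UMIs, 482 held 1, 357 held 2, 534 held 3 to 5 and 340 held 6 or more. Over 4 equal bins of these cells by the summed level of their gating genes, Kitl stood at 131 CPM [124, 139], 182, 196 and 214 [205, 223], while their median depth went from 10664 to 12762 UMIs. The collagen and matrix list stood in these cells at 0.240% of its mesenchymal level, and Kitl at 112%.

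**Figure D3:**
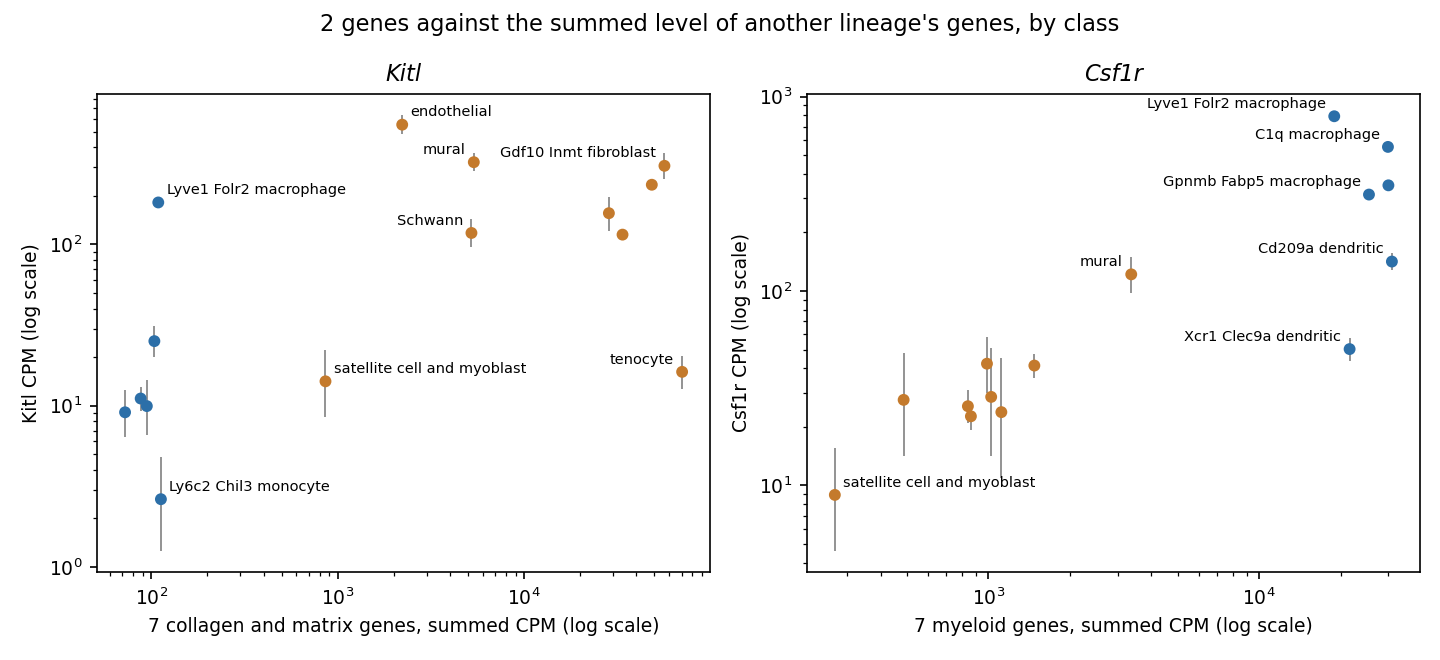
Left, Kitl CPM against the summed CPM of 7 collagen and matrix genes, right, Csf1r CPM against that of 7 myeloid genes, 1 point per class with exact Poisson 95% intervals, on log axes (stromal classes orange, myeloid blue). Kitl stands at 182 CPM in Lyve1 Folr2 macrophages, where the matrix genes sum to 109 CPM, and mural cells hold the most myeloid RNA of the stromal classes, 3371 CPM, along with the most Csf1r, 122 CPM.

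Flt3l, the growth factor for dendritic cells, was low in every class. It ranged among stromal classes from 1.35 CPM in mural cells to 26.5 CPM [12.7, 48.7] in Gdf10 Inmt fibroblasts, the latter from 10 UMIs. Endothelial cells held 15.6 CPM, Pi16 Dpp4 fibroblasts 11.3, tenocytes 9.38 and Smoc2 Cxcl14 fibroblasts 8.92. The myeloid classes lay between 3.03 and 5.74 CPM. No neighboring classes in the order of levels differed beyond counting error, but mesenchymal cells as a whole, 11.4 CPM [10.1, 12.7], were 2.68-fold above macrophages, 4.25 CPM.

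Csf1r, on chr18:61105572-61131139, was found in each of the 6 myeloid classes with at least 20 cells, in graded amounts. Lyve1 Folr2 macrophages held 792 CPM [783, 801], C1q macrophages 551 [526, 577], Ly6c2 Chil3 monocytes 349 [331, 369], Gpnmb Fabp5 macrophages 313 [303, 323], Cd209a dendritic cells 142 [128, 157] and Xcr1 Clec9a dendritic cells 50.3 [43.7, 57.5]. Each step in this order was larger than counting error, apart from mural cells, which came between the 2 dendritic classes and did not differ from the Cd209a cells. Lyve1 Folr2 macrophages stood 15.8-fold above the Xcr1 Clec9a dendritic cells.

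Nearly all Lyve1 Folr2 macrophages held Csf1r, 97.0% [96.3, 97.6] thinned, with a median of 9 UMIs and at most 37. In satellite cells and myoblasts, the class with the lowest level, the thinned share was 2.29%, at a median depth of 8648 UMIs. Of the Gpnmb Fabp5 macrophages 73.7% held a UMI. In these cells Csf1r fell along the gating genes, from 464 CPM [437, 493] in the lowest bin through 383 and 271 to 207 [192, 222] in the highest, as median depth went up. In Lyve1 Folr2 macrophages it went the other way, from 718 CPM in the lowest bin through 797 to 828 and 819.

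Among the stromal classes with at least 20 cells, Csf1r was highest in mural cells, at 122 CPM [97.9, 150]. There 81.1% of its UMIs lay in the 10% of cells with most, the myeloid background list stood at 15.2% of its myeloid level, and Csf1r at 21.0% of its own. In Pi16 Dpp4 fibroblasts Csf1r stood at 22.7 CPM, 89.2% of it in the top 10% of cells, and at 8.32 CPM after removal of the barcodes with the highest doublet scores.

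**Figure D4:**
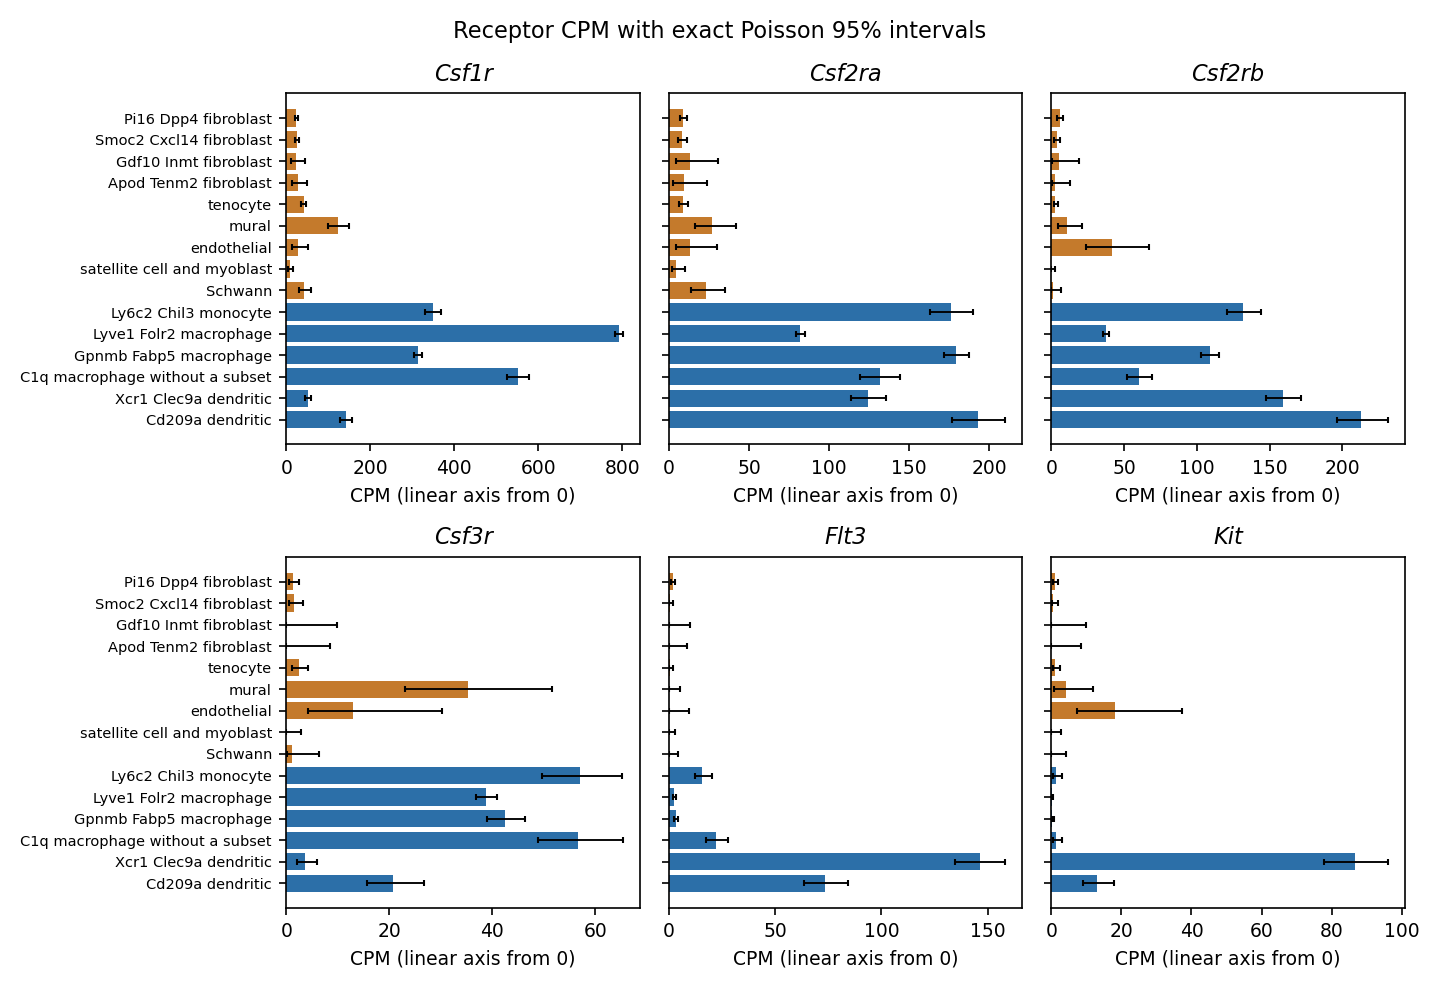
CPM of the 6 receptor genes in each class (bars from 0, stromal classes orange, myeloid classes blue) with exact Poisson 95% intervals. Csf1r is highest in Lyve1 Folr2 macrophages at 792, Csf2ra and Csf2rb in Cd209a dendritic cells at 193 and 213, and Flt3 and Kit in Xcr1 Clec9a dendritic cells at 146 and 86.6.

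The chains of the GM-CSF receptor were ordered otherwise than Csf1r among the same cells. Csf2ra stood at 193 CPM [177, 210] in Cd209a dendritic cells, 180 [172, 187] in Gpnmb Fabp5 macrophages and 176 [163, 190] in monocytes, and neighbors in this order did not differ beyond counting error. C1q macrophages held 132 CPM, Xcr1 Clec9a dendritic cells 124 and Lyve1 Folr2 macrophages 82.1 [79.2, 85.1], the lowest myeloid value. The Cd209a level was 2.35-fold that of Lyve1 Folr2 macrophages.

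Csf2rb had wider steps. It stood at 213 CPM [196, 231] in Cd209a dendritic cells, 159 [147, 172] in Xcr1 Clec9a dendritic cells, 132 [121, 144] in monocytes, 109 [103, 115] in Gpnmb Fabp5 macrophages, 59.9 in C1q macrophages and 37.6 [35.6, 39.7] in Lyve1 Folr2 macrophages. Each of the first 4 steps was larger than counting error, and Cd209a cells were 5.67-fold above Lyve1 Folr2 macrophages. Its paralog Csf2rb2 stood at 13.2 to 26.8 CPM over the 6 myeloid classes, highest in Gpnmb Fabp5 macrophages. Among 40 endothelial cells Csf2rb held 41.5 CPM from 16 UMIs and Csf2rb2 28.5 CPM from 11, where the myeloid background list stood at 4.62% of its myeloid level.

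UMIs of both chains were held by 56.7% of Cd209a dendritic cells, 58.1% of Xcr1 Clec9a dendritic cells, 54.5% of Gpnmb Fabp5 macrophages, 48.1% of monocytes, 18.3% of Lyve1 Folr2 macrophages and 17.3% of C1q macrophages. Each of these shares was within 2.5 points of the product of the separate shares, with cells not thinned.

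Between monocytes and Lyve1 Folr2 macrophages, Csf2ra, Csf2rb and Flt3 were more than 2-fold higher in monocytes and Csf1r, Kitl and Il34 lower. In that comparison 8.07% of 14392 features were 2-fold higher in monocytes and 27.3% lower, with a median log2 ratio of -0.30 over all features. The Csf1r log2 ratio was -1.18 [-1.26, -1.10] and those of Csf2ra and Csf2rb 1.10 [0.98, 1.22] and 1.81 [1.66, 1.96]. The value for Il34 rests on 1 UMI in monocytes, and its interval includes 0.

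Between Gpnmb Fabp5 and Lyve1 Folr2 macrophages, Csf1, Csf2ra and Csf2rb were more than 2-fold higher in the first and Csf1r and Kitl lower, with Csf2ra at a log2 ratio of 1.13 [1.05, 1.21] and Csf2rb at 1.53 [1.42, 1.65]. Over 14652 features, 6.42% were higher and 27.5% lower. Of 9 members with at least 20 UMIs, 3 were higher in each comparison, beside backgrounds of 8.07% and 6.42%, and 3 and 2 were lower, beside 27.3% and 27.5%. The 2 comparisons share the Lyve1 Folr2 macrophages.

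Among the classes with at least 20 cells, Csf3r, the G-CSF receptor, was spread thinly over monocytes and macrophages. Monocytes held 57.1 CPM [49.7, 65.2], C1q macrophages 56.6 [48.8, 65.3], Gpnmb Fabp5 macrophages 42.5 [38.9, 46.3] and Lyve1 Folr2 macrophages 38.8 [36.8, 40.9]. The first pair did not differ beyond counting error, nor did the last pair. Cd209a dendritic cells held 20.6 CPM and Xcr1 Clec9a dendritic cells 3.59 CPM, 11.4-fold under the macrophages together. Mural cells held 35.2 CPM, but 17 of their 26 UMIs lay in a single cell. Only 3 neutrophils passed the depth minimum, too few to be ranked. They held 5 Csf3r UMIs, 0.154% of the total beside 0.0164% of all UMIs. Monocytes held 6.67% beside 3.35%, so the level in these few neutrophils was the higher.

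Among the named classes, Flt3 was highest in the dendritic cells, and Kit in the cross-presenting Xcr1 Clec9a class. Flt3 stood at 146 CPM [135, 158] in Xcr1 Clec9a cells and at 73.2 [63.4, 84.2] in Cd209a cells, a log2 ratio of 1.00 [0.76, 1.24]. C1q macrophages held 22.1 CPM [17.3, 27.8] and monocytes 15.8 [12.0, 20.3], which did not differ beyond counting error. Gpnmb Fabp5 and Lyve1 Folr2 macrophages held 3.14 and 2.59 CPM. A Flt3 UMI was held by 50.4% [43.9, 57.0] of Xcr1 Clec9a cells thinned, and by 1.19% of Lyve1 Folr2 macrophages. Over equal bins of the Lyve1 Folr2 macrophages by their gating genes, Flt3 went from 6.34 CPM through 2.96 and 1.11 to 0.312.

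Kit, the stem cell factor receptor, stood at 86.6 CPM [77.9, 96.0] in Xcr1 Clec9a dendritic cells, from 362 UMIs in 236 cells. Cd209a dendritic cells held 12.9 CPM [8.97, 17.9], 6.73-fold less, and the macrophage classes together 0.234 CPM from 12 UMIs in 4020 cells, 371-fold less. The Xcr1 Clec9a cells carried 66.3% of all Kit UMIs of the kept barcodes and 3.68% of all UMIs. A Kit UMI was held by 61.4% of them unthinned, and by 29.7% [23.9, 35.9] thinned, against 0.0683% of Lyve1 Folr2 macrophages thinned, at median depths of 16825 and 11445 UMIs. By number, 63 of the 236 cells held 1 Kit UMI, 33 held 2, 35 held 3 to 5 and 14 held 6 or more.

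Leukocytes with no single subset held 76 Kit UMIs, 13.9% of the total, at 5.78 CPM. Endothelial cells held 18.2 CPM from 7 UMIs, which did not differ from the Cd209a cells beyond counting error. A single gated mast cell held 13 Kit UMIs among its 6682 UMIs, a higher level than in any named class. Schwann cells held 0, which allows up to 3.43 CPM. In the Xcr1 Clec9a class 136 of 236 cells, 57.6% [51.0, 64.0], held both Flt3 and Kit, where the product of the shares is 52.1%, and 93.8% of the Kit-positive cells held Flt3.

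Of the 3 classes with at least 20 cells and a Kit level over 10 CPM, the endothelial cells also had the highest level of its ligand Kitl. Xcr1 Clec9a dendritic cells held Kitl at 9.10 CPM, in 5.93% of cells unthinned. Of the Lyve1 Folr2 macrophages, 1708 of 2930 held UMIs of both Csf1r and Kitl, 58.3%, a share set by Kitl, since 2919 of these cells held Csf1r.

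For the dendritic classes together against the macrophage classes together, Csf2rb, Flt3 and Kit were more than 2-fold higher in dendritic cells and Csf1, Kitl, Csf1r and Csf3r lower. Over 15124 features 9.67% were higher and 24.7% lower, with a median log2 ratio of -0.27. The log2 ratio was 7.94 for Kit, 4.89 [4.66, 5.12] for Flt3, 1.69 for Csf2rb, -2.94 [-3.06, -2.83] for Csf1r and -1.99 for Csf3r. Csf2ra differed by less than 2-fold, at 0.48 [0.39, 0.58].

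**Figure D5:**
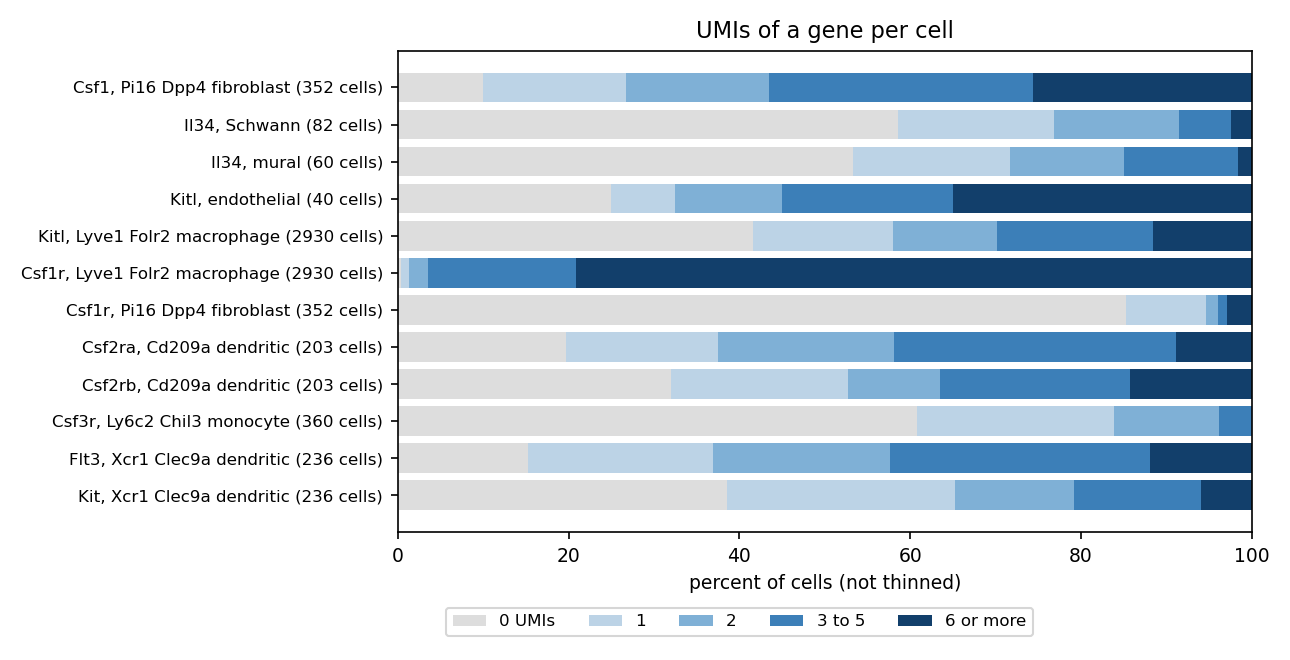
Percent of cells (horizontal axis, not thinned) with 0, 1, 2, 3 to 5, or 6 or more UMIs of a gene, for 12 pairs of gene and class. Of Lyve1 Folr2 macrophages 79.1% hold 6 or more Csf1r UMIs and 11.6% hold 6 or more Kitl UMIs, while 85.2% of Pi16 Dpp4 fibroblasts hold 0 Csf1r UMIs.

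A list of 29 further genes of these pathways was counted between mesenchymal and myeloid cells. Of 26 genes with at least 20 UMIs, 4 were 4-fold higher in mesenchymal cells and 10 lower, beside 18.8% and 10.5% of all features, and the median log2 ratio was -0.90. Il3, Il5 and Il5ra had too few UMIs. Lower in mesenchymal cells were the adaptor Tyrobp (log2 ratio -4.38), the transcription factor gene Spi1 that encodes PU.1 (-4.39), the phosphatases Inpp5d (-4.32) and Ptpn6 (-3.85), the kinase Lyn (-3.54), Csf3 (-3.38), Fes (-2.98) and Csf2rb2 (-2.90), with Grb2 past the fold by less and Csf2 at least 7.26-fold lower, a bound from 0 mesenchymal UMIs taken as 3. Tyrobp is also on the myeloid background list. The 4 higher genes, named after their values were seen, were Ptprz1 (2.71, from 20 UMIs against 7) and Sdc1 (2.24), which encode other binding partners of the interleukin 34 protein, and the signal dampers Socs1 (2.68) and Cblb (2.61).

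Grb2, named above, and Csf2, Csf3 and Jak2 were likewise singled out after their values were seen. The ligand genes Csf2 and Csf3, for GM-CSF and G-CSF, were low throughout. Csf2 held 0 UMIs in mesenchymal and 50 in myeloid cells, 0.804 CPM. Csf3 held 24 UMIs in mesenchymal and 573 in myeloid cells, of which 378 lay in Gpnmb Fabp5 macrophages, 31.2 CPM, against 3.03 CPM in Lyve1 Folr2 macrophages. The kinase gene Jak2, which transmits signals of the GM-CSF receptor, stood at 422 CPM in dendritic cells and 55.7 in macrophages.

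Across the 12 classes with at least 50 cells, the members paired by correlation of log2(CPM + 1) were Csf1r with Csf3r (Pearson's r = 0.95) and Csf2ra with Csf2rb (r = 0.94). The genes most like Csf1 were Socs1 (0.99), Scara3 (0.95) and C1ra (0.94), and those most like Csf1r were Tlr8, Cd93 and Aoah (each 0.99). Flt3 was most like Tspan33 (0.98), Haao and Grap2 (each 0.97), and Kit most like Gm36723 (0.96), Prkar2a (0.95) and Cmtr1 (0.94). Kitl was most like Ccdc138 (0.94), Adcy9 and Sema6d (each 0.92), and Il34 was like Dhx30 (0.98) and Ptpn9 (0.97). For Csf2ra these were Iqgap1, Alcam and Dock2 (0.98 to 0.99), for Csf2rb Myo1g, Ccdc88b and Plcb2 (0.98 to 0.99), for Csf3r Gla, Plxna4os1 and Gm36161 (0.97 to 0.98), and for Flt3l Enc1, Hsd3b7 and S100a13 (0.92 to 0.95). The classes share 1 library and these correlations are descriptions.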

How the data were processed

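Per the labels and the matrix header, the authors made raw UMI counts per gene and barcode with Cell Ranger (7.1.0 in the submitters' processing notes, 8.0.1 in the file header) and not normalized. The notes name mm10, the study's methods also GRCm39. Gene positions and promoters here come from RefSeq GRCm38.p6, matched by symbol for 10 of 10 members. The GFP+ library held 36400 barcodes. The other sort was not analysed here.

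A lineage needed at least 3 UMIs over 2 markers and 3 times the UMIs of any other list, a subset 2 times. Pooled CPM carry exact Poisson, shares exact Clopper-Pearson and log2 ratios exact conditional 95% intervals. A count of 0 allows up to 3 counts. A single library allows neither tests nor p-values. The study's DecontX and DoubletFinder were not applied in the main values. Alternatives were depth minimums of 10000 and 2000 UMIs, the list with most UMIs taking the cell, 5 UMIs over 3 markers, removal of the 14.56% highest Scrublet scores (scanpy 1.11.5, 1267 barcodes), means over cells, and unthinned shares. Members, gates and lists were chosen with earlier results of these data known. The named genes were the 10 members, up to 8 of 29 pathway genes by largest absolute log2 ratio (further ones are marked as chosen later), and the 3 most alike genes for each member, among genes with at least 200 UMIs, of which 1 is not reported here. The gates and the intervals of ratios were tried on counts simulated from pooled profiles of the gated classes. Those counts lack the variation between real cells of a class, so the trial cannot show how the steps handle it. Python 3.11.15, numpy 2.4.6, scipy 1.17.1 and pandas 2.3.3 were used.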

Additional observations from a re-analysis of the deposited data

Results flagged for a closer look

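Csf3r stood at 1135 CPM in 19 neutrophil-gated barcodes under the depth minimum of 5000 UMIs, which the report's comparisons do not use, from 49 UMIs and with a Csf3r UMI in 73.7% of them. This is above the limit that a count of 0 allows and above every class past the minimum. Control samples were not used here.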

How the results depend on the processing

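No paired analysis was possible because there is 1 library. The direction of all 10 log2 ratios of mesenchymal to myeloid cells held under the 6 alternatives. With barcodes from 2000 UMIs the ratio of Csf1 was 5.02 and those of Csf1r, Csf2ra, Csf2rb, Csf3r and Flt3 were -3.11, -2.96, -3.14, -3.09 and -3.00. Without the highest doublet scores Csf1r, Csf2ra, Csf2rb, Csf3r, Flt3 and Kit were at -5.44, -4.49, -6.24, -5.59, -6.39 and -4.99, and Kitl at 0.62. With the list with most UMIs taking the cell, Csf1r, Csf2ra, Csf2rb and Csf3r were at -3.83, -3.36, -3.50 and -3.54. With 5 UMIs over 3 markers Kitl was at 0.71. Means over cells gave 0.51 for Kitl and -3.79 for Csf2rb, and a minimum of 10000 UMIs gave -4.45 for Csf2rb. The cause was not tested.

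Kitl in Lyve1 Folr2 macrophages stayed between 176 and 192 CPM. In endothelial cells it went from 401 CPM at 10000 UMIs to 718 CPM without the highest doublet scores. Il34 in that setting was 56.8 CPM in mural and 107 CPM in Schwann cells. At 10000 UMIs the endothelial cells and Gdf10 Inmt fibroblasts fell under 20 cells. Mural cells, 321 CPM, then led the remaining classes for Kitl and Pi16 Dpp4 fibroblasts, 11.2 CPM, for Flt3l, although the Gdf10 Inmt fibroblasts held 16.9 CPM of it. C1q macrophages were highest for Csf3r there. With the list with most UMIs, Dkk2 Bmper fibroblasts, 83 cells at 228 CPM where the main gates left 19, were highest for Csf1 and C1q macrophages for Csf3r. Classes of 27 to 60 cells gave few UMIs for Flt3l and Il34, from 0 to 10 in the fibroblast and endothelial classes of this size, which limits the precision there.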
